A study of Homo sapiens with 6 samples.

Results

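The comparison described here sets the library labelled G, from ES2 cells treated with an agent that the labels call G4, against the library labelled Control, from ES2 cells given no drug. ES2 is an established human ovarian cancer cell line. Each condition had 1 library, so 2 of the 6 libraries of the series make up the comparison, and the treatment lasted 7 days. Members were the genes with at least 1 FPKM (a level corrected for gene length and sequencing depth) in G or in Control. Of 33706 genes in the table, 12482 were members and 21224 were not. The value given for each gene is the log2 ratio of FPKM + 1 in G over Control, a scale on which 1 is a doubling and on which differences of weakly expressed genes are understated. The other libraries were T, R, TR and GR, also 1 each, and the GR and R libraries serve below as a comparison with the same letter G added, sharing no library with G and Control. The letters R and T are not spelled out in the sample labels, although the series text names a T-oligo, G4 and RHPS4, and what G4 is chemically is not stated.

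With 1 library per condition there was no test and no replicate error anywhere. Intervals are 95% intervals for counting error in these libraries and say nothing about other cultures. The level of a gene in bulk RNA also cannot separate fewer expressing cells from less RNA per cell. Total counts were 78683454 in G and 80880921 in Control, and lay between 73213048 and 83976498 across the series. More genes had at least 1 count in G (27859) than in Control (24489), and more reached 1 FPKM in G (12250) than in Control (11364). Mitochondrially encoded genes held 6.17% of counts in G (Wilson interval 6.16 to 6.17%) and 6.98% in Control (6.97 to 6.98%), against 0.893% in GR and 0.351% in R.

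The labels disagree about the cells. All sample titles name ES2, but the source name of G, as of GR and R, gives SKOV3, another ovarian cancer line, while that of Control gives ES2. SKOV3 is known for amplified ERBB2 and for lacking CDKN2A expression. ERBB2 stood at 0.444 FPKM in G and 0.233 FPKM in Control, and CDKN2A at 74.4 FPKM in G and 98.3 FPKM in Control. Of the epithelial markers, CDH1, KRT19 and MUC16 had 0 counts in G and in Control and EPCAM had 13 counts in G and 0 in Control, whereas KRT7 (147 FPKM in G, 93.2 FPKM in Control) and KRT18 (120.0 FPKM in G, 89.9 FPKM in Control) were abundant. No leukocyte marker in the table reached 1 FPKM in G or Control: their summed level was 0.805 FPKM in G and 0.131 FPKM in Control, and PTPRC had 0 counts in G and in Control. Of 7 endothelial markers in the table, TIE1 (49.3 FPKM in G, 48.8 FPKM in Control) and CDH5 (15.0 FPKM in G, 19.2 FPKM in Control) were the ones above 1 FPKM.

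Chemokines and interleukins are secreted signals that recruit and activate immune cells, and tumour cells as well as immune cells can make them. Many are known targets of NF-kB, a family of transcription factors held in the cytoplasm by IkB proteins until a stimulus such as IL-1 or TNF releases them. In ovarian cancer cells this programme is known for secretion of CXCL8 and IL6.

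Of the 7 genes beyond 8-fold, CXCL1 is a chemokine, IL1A an interleukin and IL7R a cytokine receptor, and the other 4 are rows without a symbol of their own. CXCL1, IL1A, IL6 and CSF2 are shown because they are, with CCL2, the listed chemokine and cytokine genes with the highest ratios. Each line gives the 250 bases before the RefSeq transcription start (GRCh38.p14, 5′ to 3′ on the gene's strand), with capitals marking matches to the NF-kB consensus or to the AP-1 sequence TGANTCA. The windows are chr4:73869143-73869392 on the plus strand for CXCL1, chr2:112784494-112784743 on the minus strand for IL1A, chr7:22726950-22727199 on the plus strand for IL6 and chr5:132073539-132073788 on the plus strand for CSF2.
CXCL1: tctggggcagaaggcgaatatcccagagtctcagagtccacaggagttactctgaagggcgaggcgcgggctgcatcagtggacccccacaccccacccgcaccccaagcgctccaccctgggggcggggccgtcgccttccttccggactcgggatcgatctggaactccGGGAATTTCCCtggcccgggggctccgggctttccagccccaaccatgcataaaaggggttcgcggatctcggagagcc
IL1A: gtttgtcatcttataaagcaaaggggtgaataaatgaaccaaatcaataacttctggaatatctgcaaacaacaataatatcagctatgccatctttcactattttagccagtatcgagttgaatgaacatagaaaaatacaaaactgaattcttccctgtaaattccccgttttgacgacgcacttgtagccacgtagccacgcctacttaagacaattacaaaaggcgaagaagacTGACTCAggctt
IL6: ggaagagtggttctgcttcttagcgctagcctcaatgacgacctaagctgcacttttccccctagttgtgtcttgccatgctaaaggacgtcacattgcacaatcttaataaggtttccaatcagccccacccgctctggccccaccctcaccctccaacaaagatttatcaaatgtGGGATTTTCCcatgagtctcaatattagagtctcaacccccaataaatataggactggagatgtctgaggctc
CSF2: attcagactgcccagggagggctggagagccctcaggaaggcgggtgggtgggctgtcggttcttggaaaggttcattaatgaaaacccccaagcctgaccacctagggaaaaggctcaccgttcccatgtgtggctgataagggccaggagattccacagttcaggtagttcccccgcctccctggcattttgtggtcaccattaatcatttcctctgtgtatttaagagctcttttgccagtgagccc

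The CXCL1 window held 2 overlapping NF-kB matches, at -79 to -70 on the plus strand and at -78 to -69 on the minus strand. The IL6 window held 1 at -73 to -64, the IL1A window held an AP-1 match at -12 to -6, and the CSF2 window held neither. The G-quadruplex pattern was found on the minus strand of the CXCL1 window, within -167 to -145, and of the IL6 window, within -125 to -97. Searched on both strands, an NF-kB match stood in 5.05% of all 27305 promoter windows and in 5.99% of the 9127 windows of members. It stood in 12.3% of the 220 windows of genes at least 2-fold higher in G, and in 8 of 17 windows (47.1%) of chemokine and cytokine genes with at least 1 FPKM. The AP-1 sequence was in 6.6% of all windows, 3.76% of those of members and 7.73% of those of the higher genes. The interferon-stimulated response element, by its usual consensus, was in 3.07% of all windows, 2.32% of those of members and 4.55% of those of the higher genes. That pattern (4 runs of at least 3 G with gaps of 1 to 7 bases), a sequence that can fold into stacked G planes, was in 32% of the windows of members, in 30.5% of those of the higher genes and in 34.5% of the 29 windows of genes at least 2-fold lower. These are matches of letters, and binding was not measured.

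Across all members, 434 genes were at least 2-fold higher in G than in Control, a background of 3.48%, and 60 genes were at least 2-fold lower, a background of 0.481%. Beyond 4-fold there were 41 higher and 11 lower genes, and beyond 8-fold 7 higher genes. Most genes differed little, since 83.1% lay within 1.5-fold. The median ratio was 0.08 and 57.7% of members lay above 0, the share beside which the counts above 0 given for lists below should be read. This split depended on the scaling. With TMM factors, which assume that most genes are equal, 292 genes were higher and 150 lower, so that 66.1% of the genes past 2-fold were higher instead of 87.9%, and the median of all genes became -0.11. Median-ratio scaling gave 301 higher and 142 lower. Ratios below are those of FPKM + 1 as deposited, so a value near 0.08 stands at the median of all genes. Rows that overlap another gene on the same strand can share its reads: they made up 3728 of the members, 180 of the 434 and 34 of the 60. Among the genes described below, such rows include C3, C1R, IL32, SOD2, NFKBIZ, MMP2, FBN1, THBS1, HLA-B, PTGS1, IL13RA1, GDF15, CKS2 and HSPA8.

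**Figure D1:**
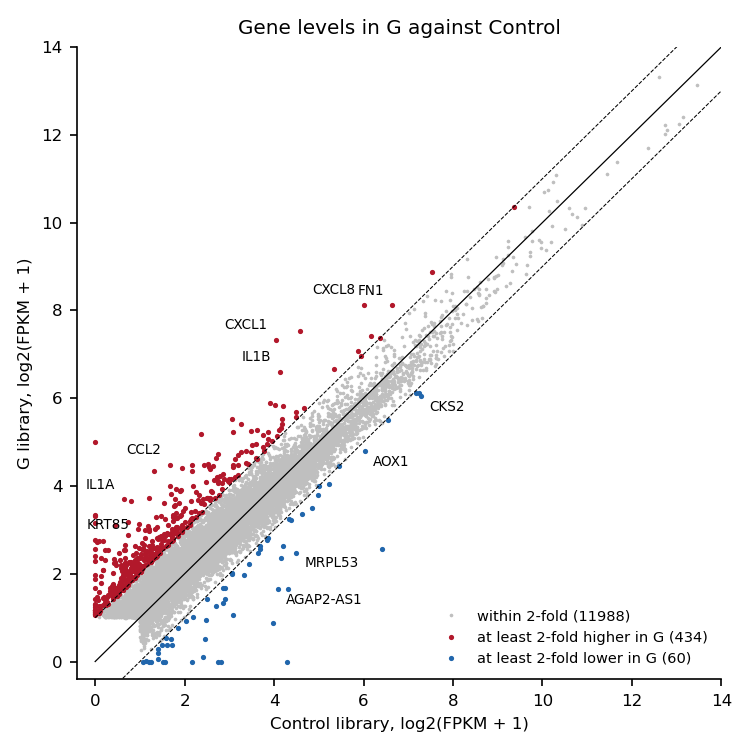
Each point is 1 of the 12482 members, with log2(FPKM + 1) in Control on the horizontal axis and in G on the vertical axis; the solid line marks equality and the dashed lines 2-fold. The 434 higher genes extend to the level of CXCL8 and FN1, and the 60 lower genes include CKS2 and AOX1.

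The nearest genes on either side of the limits show how they work. MIR3685 (0.879 FPKM in G, 1.0008 FPKM in Control) and TBC1D30 (1.0009 FPKM in G, 0.848 FPKM in Control) were just inside the level limit, and RAPGEFL1, at 0.99995 FPKM in G and 0.749 FPKM in Control, was just outside it. At the fold limit, MT-RNR1 had 1310 FPKM in G and 653 FPKM in Control and counted as higher, and ADGRF4 had 1.24 FPKM in G and 0.120 FPKM in Control and did not. A gene below 1 FPKM in Control could enter only by being higher in G, so counts and list medians over members lean that way. The 3 list medians past 2-fold below are those of chemokines, interleukins with colony stimulating factors, and complement genes. With no level limit all 3 kept their sign, and 0 of the 3 stayed past 2-fold. Genes near 0 FPKM in both libraries, whose ratios lie near 0, then also enter. With a limit of 5 FPKM, without overlapping genes or after a GC correction, 2 of the 3 medians stayed past 2-fold. The same number did so with TMM or median-ratio scaling. Among the 11364 genes with at least 1 FPKM in Control, 244 were at least 2-fold higher in G (2.15%).

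Chemokines were the list with the highest median. Of 24 listed genes, 14 matched the table and 9 were members, of which 7 were at least 2-fold higher in G, with a median ratio of 1.87 against 0.08 for all genes. Of the 7 members with at least 1 FPKM in Control, 5 were at least 2-fold higher in G. CXCL1, which draws neutrophils through the receptor CXCR2, had 160 FPKM in G and 15.4 FPKM in Control, from 18273 counts in G and 1807 in Control, a count ratio of 10.4 (9.9 to 10.9). CXCL8, another ligand of CXCR2, had 279 FPKM in G and 63.1 FPKM in Control. CXCL5, looked up after its values were seen, was as abundant in G, with 295 FPKM in G and 211 FPKM in Control. The related CXCL2 had 14 FPKM in G and 2.77 FPKM in Control, and CXCL3 had 11.5 FPKM in G and 3.42 FPKM in Control. These 5 CXC genes were all higher in G, with log2 ratios that ran between 0.48 for CXCL5 and 3.29 for CXCL1.

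The monocyte attractant CCL2 (chr17:34255274-34257208 in the table) had 21.4 FPKM in G and 2.18 FPKM in Control, a count ratio of 9.82 (8.82 to 11). CCL20, the ligand of CCR6 on lymphocytes and dendritic cells, had 4.78 FPKM in G and 0.583 FPKM in Control. CCL5, a T cell attractant, had 136 counts in G and 0 in Control, at least 46.6-fold higher when 3 counts are set as the floor of a library. By the log2 ratio of FPKM + 1, which understates differences of weakly expressed genes, their order was CCL2, CCL20 and CCL5. By counts, the bound for CCL5 was above the ratios of CCL2 and of CCL20, which was 8.04. CCL5 had the lowest level of them.

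Interleukins and colony stimulating factors were similar. Of 30 listed, 27 matched and 14 were members, and 8 of the 14 were at least 2-fold higher in G, with a median ratio of 1.51. With at least 1 FPKM in Control there were 9 members, and 4 of these were at least 2-fold higher. IL1A, an IL-1 receptor ligand released by damaged or stressed cells, had 12 FPKM in G and 0.552 FPKM in Control, a count ratio of 21.8 (17.7 to 27.0). IL1B, the other main ligand of that receptor, had 96.1 FPKM in G and 16.5 FPKM in Control. IL6 had 5.70 FPKM in G and 0.061 FPKM in Control, or 2071 counts in G and 24 in Control, a ratio of 88.7 with a wide interval (59.4 to 139). Among these 3 genes the count ratio was largest for IL6 and the level highest for IL1B.

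CSF2, the granulocyte-macrophage colony stimulating factor, had 328 counts in G and 0 in Control, at least 112-fold higher. Its neutrophil counterpart CSF3 had 4.20 FPKM in G and 1.17 FPKM in Control, and CSF1, which sustains macrophages, had 6.83 FPKM in G and 1.31 FPKM in Control. IL11, a cytokine of the gp130 family, had 21.7 FPKM in G and 4.77 FPKM in Control. IL32 had 7.13 FPKM in G and 0.95 FPKM in Control, and its row is an overlapping one. All 3 colony stimulating factors were at least 2-fold higher in G.

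Receptors for such signals differed from gene to gene. Of 32 listed cytokine receptors, 19 were members and 4 of them were at least 2-fold higher in G, with 14 above 0 and a median of 0.65. IL7R (chr5:35852695-35879603 in the table), the alpha chain of the interleukin receptor of that name and best known in lymphocytes, had 19.2 FPKM in G and 1.49 FPKM in Control, a count ratio of 12.8 (11.9 to 13.8). IL6ST, the shared signalling chain gp130, had 20.5 FPKM in G and 7.49 FPKM in Control. IL13RA1 had 18.2 FPKM in G and 6.30 FPKM in Control, and LIFR had 3.92 FPKM in G and 1.30 FPKM in Control, a ratio that came within 2-fold under TMM scaling. IL7R thus stood apart from the other receptors by the size of its ratio.

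**Figure D2:**
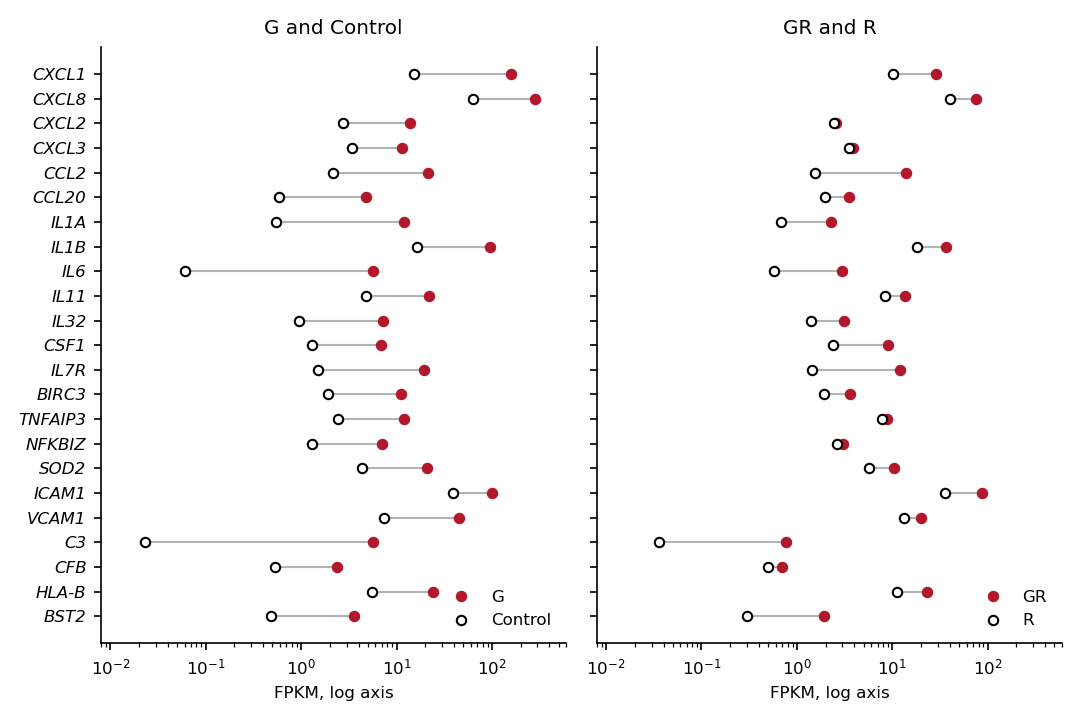
Levels in FPKM on a log axis for 23 chemokine, cytokine, receptor, NF-kB, complement and interferon-related genes, 1 library per point: G (filled) and Control (open) on the left, GR (filled) and R (open) on the right. The 23 genes shown are all at least 2-fold higher in G, so their lying higher in G than in Control follows from their choice. Members of the same lists that differed less are left out. The gaps between GR and R are narrower than those between G and Control for CXCL2, CXCL3, TNFAIP3 and NFKBIZ.

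The NF-kB list holds the subunits, signalling genes that act on them, and target genes. The targets include feedback genes that limit NF-kB, such as TNFAIP3 and NFKBIA, and others such as BIRC3, NFKBIZ, VCAM1, ICAM1 and SOD2. Of the list's 27 genes, 26 were members, 12 of them at least 2-fold higher in G and none at least 2-fold lower, with a median ratio of 0.90. Of the 25 with at least 1 FPKM in Control, 11 were at least 2-fold higher. The subunits themselves, looked up after the list's values were seen, were closer to the Control. NFKB1 had 4.60 FPKM in G and 3.32 FPKM in Control, NFKB2 37.6 FPKM in G and 24.6 FPKM in Control, and RELA 23.1 FPKM in G and 24.4 FPKM in Control. RELB, a subunit of the slower non-canonical pathway, had 16.8 FPKM in G and 7.24 FPKM in Control. The genes of the list past 2-fold were thus mostly not the subunits.

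Target genes were among the highest of the list. BIRC3, a ubiquitin ligase of the TNF receptor complex, had 11.1 FPKM in G and 1.93 FPKM in Control. TNFAIP3, which encodes the inhibitor A20, had 11.9 FPKM in G and 2.46 FPKM in Control, and NFKBIZ, an atypical nuclear IkB protein, had 7.06 FPKM in G and 1.29 FPKM in Control. NFKBIA, which encodes IkB-alpha, had 26.8 FPKM in G and 12.8 FPKM in Control and came within 2-fold under TMM scaling, as did RELB, TNFAIP2, TRAF1 and IKBKE. The adhesion molecules VCAM1 and ICAM1, to which leukocytes bind, had 45.3 and 100.04 FPKM in G, against 7.31 and 39.4 FPKM in Control. SOD2, the mitochondrial superoxide dismutase, had 21.1 FPKM in G and 4.39 FPKM in Control.

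Complement and acute phase genes had 6 of 11 members at least 2-fold higher in G, with a median ratio of 1.03, but none of the 4 members with at least 1 FPKM in Control was among them, and 7 of the 11 overlap another gene on the same strand. C3, the central component of the cascade, had 5.64 FPKM in G and 0.023 FPKM in Control, from 5487 counts in G and 24 in Control. Its row overlaps GPR108 on the same strand, so reads may be shared. C1R, a protease of the first component, had 3.36 FPKM in G and 0.502 FPKM in Control, and CFB had 2.39 FPKM in G and 0.526 FPKM in Control. The C1R row overlaps C1RL on the same strand. C1QTNF1, a secreted protein with a C1q-type domain, had 5.67 FPKM in G and 0.126 FPKM in Control, a count ratio of 44.8 (34.0 to 60.1). The levels of these genes were low in Control, each under 1 FPKM.

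Of the interferon-stimulated genes, 27 of 27 members lay above 0 as deposited and 23 of 26 with TMM factors. Only 16 of the 27 had at least 1 FPKM in Control, and the others could enter only by being higher in G. With no level limit, 36 of 38 interferon-stimulated genes lay above 0. The median of the 27 members was 0.63, or 0.44 with TMM factors. Of the 27, 10 were at least 2-fold higher in G, 4 of them among the 16 with at least 1 FPKM in Control. BST2, which tethers budding viruses, had 3.61 FPKM in G and 0.484 FPKM in Control, and SAMD9L had 3.60 FPKM in G and 0.617 FPKM in Control. The guanylate-binding protein GBP2 had 3.79 FPKM in G and 0.699 FPKM in Control, and IFIT3 had 3.44 FPKM in G and 0.961 FPKM in Control. Levels of these 4 genes stayed below 4 FPKM. Class I antigen presentation had 3 of 16 members past 2-fold, all higher: HLA-B, a peptide-presenting heavy chain of a family of near-identical genes whose reads may be split, had 23.9 FPKM in G and 5.54 FPKM in Control, the peptide-trimming ERAP1 had 15.7 FPKM in G and 5.69 FPKM in Control, and the immunoproteasome subunit PSMB9 came within 2-fold under TMM scaling. Of the 14 sensors of nucleic acids that were members, 1 was past 2-fold, the inflammatory caspase CASP1, with 2.39 FPKM in G and 0.320 FPKM in Control.

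Matrix and protease genes also had members past 2-fold. Of 28 collagens and matrix glycoproteins, 6 were at least 2-fold higher in G, none lower, and 24 lay above 0, with a median of 0.65. Fibronectin, FN1, which cells bind through integrins, had 276 FPKM in G and 99.1 FPKM in Control, from 398497 counts in G and 146604 in Control. The microfibril protein FBN1 had 13.5 FPKM in G and 3.79 FPKM in Control, the laminin chain LAMA4 17.3 FPKM in G and 5.63 FPKM in Control, and the proteoglycan VCAN 4.88 FPKM in G and 1.11 FPKM in Control. TGFBI had 23.4 FPKM in G and 7.79 FPKM in Control, and COL6A1, at 124 FPKM in G and 60.4 FPKM in Control, came within 2-fold under TMM scaling. Integrins that bind such proteins included ITGAV, with 6.55 FPKM in G and 2.07 FPKM in Control, and 3 of 12 integrin members were at least 2-fold higher.

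Among 14 metalloproteinases and inhibitors, 3 were at least 2-fold higher in G. MMP2, a gelatinase, had 58.4 FPKM in G and 14.1 FPKM in Control, and TIMP3, an inhibitor bound to the matrix, had 169 FPKM in G and 71.1 FPKM in Control. In T, MMP2 had 39.3 FPKM, above the Control, and TIMP3 51.6 FPKM, below it. MMP1, the collagenase that dominated the list and was looked up after its values were seen, had 2662 FPKM in G and 3263 FPKM in Control, and the summed level of the list was 3215 FPKM in G and 3653 FPKM in Control. The list's median of 0.56 and its summed level thus pointed in different directions. Of 18 genes of plasminogen activation and serpins, 3 were at least 2-fold higher, among them SERPINE2, a protease inhibitor, with 8.90 FPKM in G and 1.79 FPKM in Control. THBS1, a matricellular protein that can activate latent TGF-beta, had 21.2 FPKM in G and 3.51 FPKM in Control, while the median of the matricellular and YAP target list was 0.20, and -0.02 with TMM factors.

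Some genes stood far above the rest of their list. CLDN1, a tight junction claudin, had 11.6 FPKM in G and 0.753 FPKM in Control, a count ratio of 15.3 (13.4 to 17.6), and was the 1 member past 2-fold of 12 tight junction and epithelial genes. IGFBP7, a secreted binding protein of the insulin-like growth factor system, had 35.4 FPKM in G and 4.15 FPKM in Control, and PAPPA, a protease that cleaves other binding proteins of that system, had 5.54 FPKM in G and 1.05 FPKM in Control, with 2 of 12 members of the system past 2-fold. PTGES, the terminal prostaglandin E synthase, had 4.82 FPKM in G and 0.159 FPKM in Control, and the cyclooxygenase PTGS1 had 12.8 FPKM in G and 4.01 FPKM in Control, although the median of the 10 prostaglandin genes was 0.13, and -0.03 with TMM factors. THY1, a surface glycoprotein of fibroblasts and stem cells, had 8.43 FPKM in G and 1.94 FPKM in Control. In each of these lists, most members stayed within 2-fold. SCG2, a granin of secretory vesicles that is in no list, had 7.66 FPKM in G and 0.365 FPKM in Control.

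**Figure D3:**
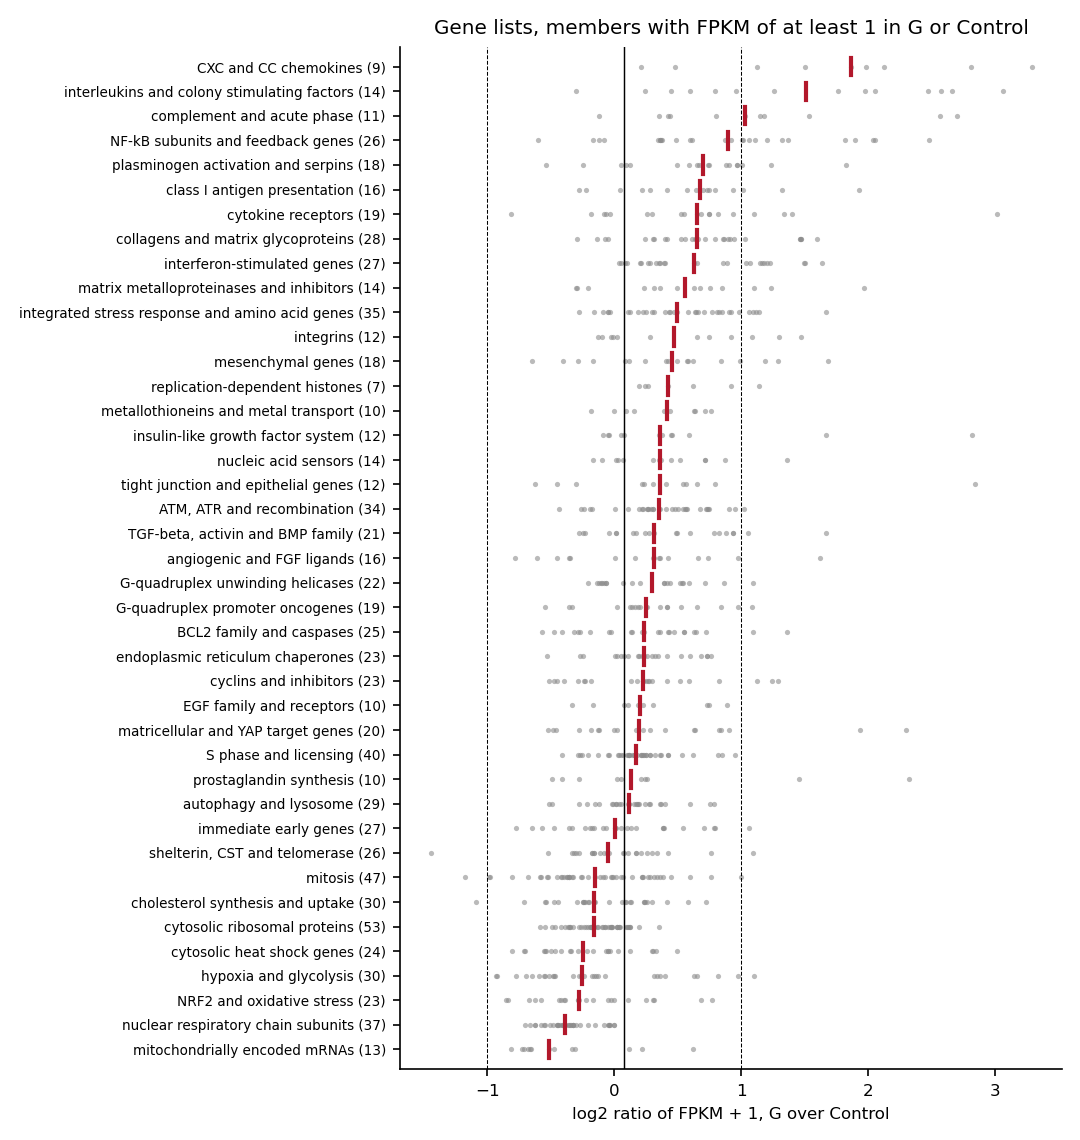
Log2 ratio of FPKM + 1, G over Control, for members of 41 gene lists (grey points; number of members in brackets) with the list's median (red bar). The solid line is the median of all genes, 0.08, and the dashed lines mark 2-fold; chemokines lie at the top with a median of 1.87 and mitochondrially encoded mRNAs at the bottom with -0.51.

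The same picture came from the gene ontology terms that the deposited table attaches to genes. Of 33 members with the term cytokine activity, 36.4% were at least 2-fold higher in G, and of 60 with extracellular matrix 28.3%. Extracellular space had 385 members and 13% of them past 2-fold, plasma membrane 1686 and 3.26%, nucleus 3855 and 1.25%, and mitochondrial inner membrane 406 and 0.493%. These terms share genes with the lists above, so they are no separate evidence.

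The integrated stress response, in which ATF4 drives amino acid and stress genes, had 5 of 35 members at least 2-fold higher in G, with a median of 0.50, beside 1.31 in T over Control, a comparison that shares the Control library. Of the 30 members with at least 1 FPKM in Control, 3 were at least 2-fold higher in G. GDF15, a stress hormone of the TGF-beta family, had 7.11 FPKM in G and 1.54 FPKM in Control, NUPR1 2.05 FPKM in G and 0.406 FPKM in Control, and DDIT4, an inhibitor of mTORC1, 22.0 FPKM in G and 9.39 FPKM in Control. ATF3, CEBPG and DDIT4 came within 2-fold under TMM scaling. None of the 23 endoplasmic reticulum chaperones was past 2-fold, and the highest by absolute ratio, HSP90B1, had 87.9 FPKM in G and 51.4 FPKM in Control.

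Cell division genes were close to the Control in G. None of 40 S phase and licensing genes was past 2-fold in either direction, with a median of 0.17 and of -0.05 under TMM factors, and T over Control had a median of -0.94 for them. Mitotic genes had a median of -0.15 in G over Control, with 17 of 47 above 0 as deposited and 13 of 47 with TMM factors. Their median in T over Control was -1.49. PLK1, a kinase of mitotic entry and exit, was at least 2-fold lower, with 15.6 FPKM in G and 36.5 FPKM in Control, and MYBL2, a factor for late cell cycle genes, was at the other limit, with 23.6 FPKM in G and 11.3 FPKM in Control, within 2-fold under TMM scaling. CDC20 had 66.2 FPKM in G and 131 FPKM in Control and CCNB1, cyclin B1, had 42.1 FPKM in G and 84.3 FPKM in Control, just within 2-fold as deposited. TMM factors lower the ratios of G over Control and put CDC20 and CCNB1 past 2-fold lower. CCNE2, a cyclin of the entry into S phase, had 3.55 FPKM in G and 0.865 FPKM in Control. PLK1, CDC20 and CCNB1 thus lay below the Control, and MYBL2 and CCNE2 above it.

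PHLDA3, an inhibitor of AKT signalling, was at least 2-fold lower, with 2.97 FPKM in G and 7.29 FPKM in Control, a call lost when the GC trend was removed. CDKN1A, which encodes the inhibitor p21, had 3.42 FPKM in G and 1.49 FPKM in Control, a ratio of 0.83. The inhibitor CDKN2B had 7.32 FPKM in G and 2.51 FPKM in Control, a ratio of 1.25. Cell cycle inhibitors therefore differed in direction, since CDKN2A was lower in G.

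Telomere and G-quadruplex genes were described because the labels speak of G4, a name also used for G-quadruplexes. Of 26 genes of shelterin, CST and telomerase, 12 lay above 0, with 1 at least 2-fold higher and 1 at least 2-fold lower, counts too small to set apart from the 3.48% and 0.481% of all members. TERT, the catalytic subunit, had 1.27 FPKM in G and 0.899 FPKM in Control, and POT1, which binds single-stranded telomeric DNA, had 4.86 FPKM in G and 3.63 FPKM in Control. TERF1 had 1.71 FPKM in G and 1.56 FPKM in Control, a ratio of 0.08 that became negative under TMM factors, and TERF2 had 6.67 FPKM in G and 7.54 FPKM in Control. TEN1, a CST subunit, had 1.41 FPKM in G and 5.55 FPKM in Control, but its row overlaps another gene. ATRX, a chromatin remodeller known to act on G-quadruplex DNA and telomeres, had 4.99 FPKM in G and 1.81 FPKM in Control and came within 2-fold under TMM scaling. MYC, whose promoter is a standard G-quadruplex example, had 47.5 FPKM in G and 59.9 FPKM in Control. Of 22 G-quadruplex helicases, 1 was past 2-fold, ATRX itself, and of 19 genes with G-quadruplex promoters 1 was, the receptor kinase KIT, with 1.57 FPKM in G and 0.206 FPKM in Control. ATRX and KIT also came within 2-fold when the GC trend was removed.

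Lists with a negative median included those of the respiratory chain, glycolysis, cytosolic chaperones and antioxidant enzymes, and none of them had a member at least 2-fold lower. The median ratio of all members also fell with level, taken as the FPKM of the higher library. It was 0.22 from 1 to 2 FPKM, 0.03 from 5 to 20, -0.16 from 20 to 100 and -0.25 from 100 FPKM upwards. Medians of lists of abundant genes should be read beside these values. All 37 nuclear respiratory chain subunits lay below 0, with a median of -0.39, and none was past 2-fold. COX5A, a subunit of cytochrome oxidase, had 47.5 FPKM in G and 73.6 FPKM in Control, and ATP5F1A, of ATP synthase, had 28.8 FPKM in G and 44.9 FPKM in Control. Of 13 mitochondrially encoded mRNAs, 10 were below 0, with a median of -0.51. The glycolytic enzymes GAPDH and PGAM1 had 989.9 and 134 FPKM in G, against 1888 and 253 FPKM in Control, and the 30 genes of hypoxia and glycolysis had a median of -0.25. In that list 9 of 30 lay above 0, among them EPAS1, a hypoxia-inducible transcription factor, with 6.07 FPKM in G and 2.30 FPKM in Control, and VEGFA, the angiogenic growth factor, with 7.00 FPKM in G and 3.07 FPKM in Control. The chaperones HSP90AB1 and HSPA8 had 666 and 215 FPKM in G, against 1087 and 376 FPKM in Control, with a list median of -0.25. The antioxidant gene TXN, thioredoxin, had 72.1 FPKM in G and 129 FPKM in Control, with a median of -0.27 over 23 NRF2 and oxidative stress genes.

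The genes lowest in G were a mixed set. RPS26P6, a ribosomal protein pseudogene, had 2.12 FPKM in G and 18.8 FPKM in Control, and because its parent gene is nearly identical the reads may be shared. AGAP2-AS1, a long noncoding RNA antisense to AGAP2, had 2.13 FPKM in G and 15.9 FPKM in Control, a count ratio of 0.135 (0.118 to 0.153), and MRPL53, a mitochondrial ribosomal protein whose row overlaps another gene, had 4.57 FPKM in G and 21.4 FPKM in Control. APLN, the secreted ligand of the apelin receptor, had 1.70 FPKM in G and 6.44 FPKM in Control. AOX1, an aldehyde oxidase, had 26.6 FPKM in G and 64.4 FPKM in Control, CKS2, a partner of cyclin-dependent kinases, 64.8 FPKM in G and 156 FPKM in Control, and MGLL, a lipase of monoacylglycerols, 13 FPKM in G and 30.6 FPKM in Control. RGS3, a regulator of G protein signalling, had 3.67 FPKM in G and 9.77 FPKM in Control. Whether counting used the strand is not stated, so reads of AGAP2-AS1 and VIM-AS1 may include those of the genes opposite them.

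RNA classes differed in their share past 2-fold. Of 10697 protein-coding members, 2.68% were at least 2-fold higher in G and 0.365% at least 2-fold lower, of 759 long noncoding RNAs 7.77% were higher and 1.05% lower, and of 143 small RNAs 27.3% were higher and none lower. For short genes 1 FPKM can rest on few counts, as for MIR3685 with 5 counts in G and 6 in Control. Entry of genes below 1 FPKM in Control also favoured those higher in G, and the shares by class were not taken without them. Of the nuclear noncoding RNAs, NEAT1, the scaffold of paraspeckles, had 20.2 FPKM in G and 2.86 FPKM in Control, and MALAT1, a neighbour located in nuclear speckles, had 15.0 FPKM in G and 2.19 FPKM in Control. In T, NEAT1 had 11.7 FPKM and MALAT1 9.29 FPKM, both also above the Control. Both rows overlap other genes. The libraries were made from RNA selected by poly(A) tails, and the part of RNA selection in these shares was not tested. The ratio also varied with GC content. Across 10 equal bins of genes ordered by transcript GC content, the median was 0.31 in the lowest bin and -0.09 in the highest, and Spearman's rho across genes was -0.32, where genes share 2 libraries and are no replicates. In GR over R the same rho was 0.11. With the GC trend removed, 418 genes were higher and 56 lower.

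**Figure D4:**
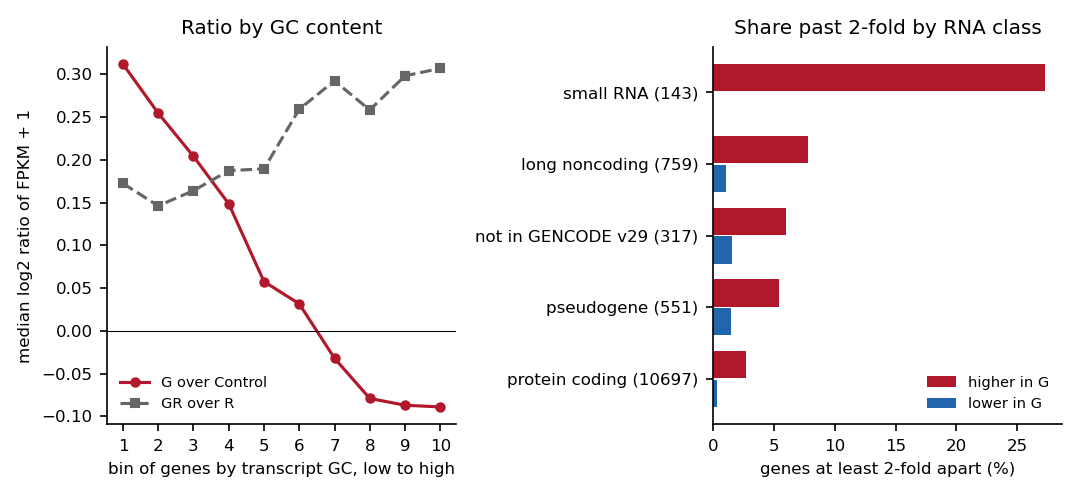
Left, median log2 ratio of FPKM + 1 in 10 equal bins of genes ordered by transcript GC content, for G over Control (red) and GR over R (grey). Right, percent of genes at least 2-fold higher (red) or lower (blue) in G by RNA class, with the number of members in brackets. Small RNAs reach 27.3% higher, a class in which 1 FPKM can rest on few counts.

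Genes without any count in 1 of the 2 libraries and with at least 100 in the other numbered 53. Of these, 41 had 0 counts in Control and 12 had 0 in G, and 25 of the 41 and 11 of the 12 overlap another gene on the same strand. KRT85, a hair keratin, had 1333 counts in G and 0 in Control, at least 457-fold higher, and its row (chr12:52360006-52367481 in the table) overlaps no other. KRT85 had 13.6 FPKM in GR and 0 in R, and 19.2 FPKM in T. The symbol KRT87P stood on 2 rows that overlap each other, one with 3795 counts in G and 0 in Control and the other with 0 in G and 2726 in Control.

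G could be followed in a second background, because GR and R differ by the same letter and share no library with G and Control. In that comparison 823 of 11992 genes were at least 2-fold higher in GR than in R (6.86%) and 145 were at least 2-fold lower (1.21%). Of the genes at least 2-fold higher in G, 98 were also at least 2-fold higher in GR than in R, which is 22.6% of the 434 and 11.9% of the 823. Lower in both were 14 genes, 23.3% of the 60 and 9.66% of the 145. Of the 434 genes, 82.9% lay above 0 in GR over R, against 67.7% of all members, and of the 60 lower genes 70% lay below 0, against 32.2%. Across all members Pearson's r between the 2 ratios was 0.29 and Spearman's rho 0.31, as a description of 4 libraries.

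The leading genes did not share 1 pattern with R. IL7R had 12.1 FPKM in GR and 1.44 FPKM in R, a ratio of 2.42, against 3.02 without R. CCL2 had 13.8 FPKM in GR and 1.54 FPKM in R, a ratio of 2.54, against 2.82 without R. C1QTNF1 had a ratio of 2.04 with R, THBS1 of 2.01 and CSF1 of 1.53. CXCL1 had 28.5 FPKM in GR and 10.2 FPKM in R, a ratio of 1.40, against 3.29 without R. CXCL2 had 2.56 FPKM in GR and 2.44 FPKM in R, CXCL3 3.88 FPKM in GR and 3.52 FPKM in R, and TNFAIP3 8.86 FPKM in GR and 7.76 FPKM in R, all within 1.5-fold. The chemokine list had a median of 0.35 in GR over R and the interleukin list 0.44, beside 0.22 for all members, and whether the ratios differ between backgrounds could not be tested. Among the lower genes, MRPL53 (9.83 FPKM in GR, 32.5 FPKM in R), VIM-AS1 (6.31 FPKM in GR, 51.1 FPKM in R) and RGS3 (5.98 FPKM in GR, 23.9 FPKM in R) were also at least 2-fold lower with R, whereas AGAP2-AS1 had 2.17 FPKM in GR and 1.87 FPKM in R.

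**Figure D5:**
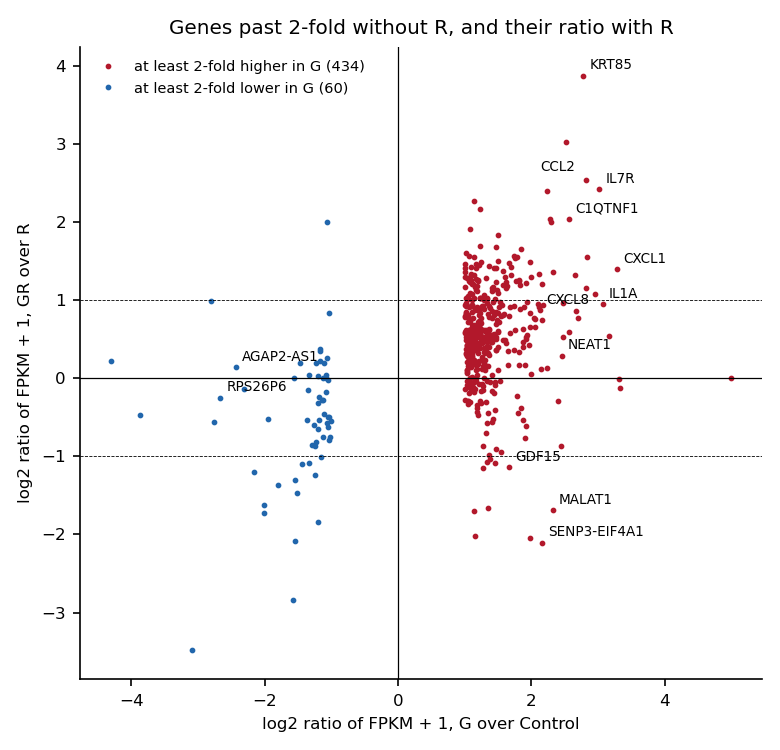
Log2 ratio of FPKM + 1 in G over Control (horizontal) and in GR over R (vertical) for the 434 genes at least 2-fold higher (red) and the 60 at least 2-fold lower (blue) in G. IL7R and CCL2 are past 2-fold on both axes, and MALAT1, GDF15 and SENP3-EIF4A1 lie below -1 on the vertical axis.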

How the data were processed

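Libraries were strand-marked with dUTP after oligo(dT) selection, per the labels' protocols, whose fields name 2 different Illumina sequencers. The submitters' processing notes name edgeR, DESeq2, StringTie 2.1.6, HISAT2 2.2.1 and cutadapt 1.9, without saying what each did. No source used here names the genome build or the gene annotation. The authors deposited 1 table with raw counts and FPKM per gene and library. The deposited FPKM values were used for levels, and the deposited counts for depth, exact intervals (Clopper-Pearson) and rescaling. Of the gene IDs, 92.6% are in GENCODE release 29, and 99.9% of those overlap its position for the same gene. Members needed 1 FPKM in either library; ratios used a pseudocount of 1. Groups held 1 library each, so no count model was fitted; the calculation of ratios was checked on simulated counts. The 45 gene lists and the genes in them were chosen with earlier results of these data known; some of their genes are not reported here. Named genes were the 15 highest and 15 lowest ratios at 5 FPKM or more, the 5 most distant members of each list and all members past 2-fold, genes with 0 counts in 1 library and at least 100 in the other, and the 10 largest and smallest differences from GR over R. TMM factors came from edgeR 4.0.16. Promoter windows came from RefSeq, GRCh38.p14; 5 figures and all ratios were made with Python 3.11.15 and pandas 2.3.3. Alternatives were other pseudocounts, level limits and scalings, a GC correction and leaving out overlapping genes.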

Additional observations from a re-analysis of the deposited data

Results flagged for a closer look

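Among genes with a symbol of their own and at least 5 FPKM in 1 of the 4 libraries, 10 were at least 2-fold apart in opposite directions without and with R. All 10 were higher in G than in Control and lower in GR than in R. Each group had 1 library, so the differences were not tested. The difference of the log2 ratios (G over Control minus GR over R) is given for each.

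MALAT1 had 15.0 FPKM in G and 2.19 FPKM in Control, but 4.75 FPKM in GR and 17.6 FPKM in R, a difference of 4.02. SENP3-EIF4A1, a readthrough of neighbouring genes, had 41.8 FPKM in G and 8.55 FPKM in Control, but 11.1 FPKM in GR and 51.1 FPKM in R, a difference of 4.27. DDIT4 had 27.8 FPKM in GR and 92.7 FPKM in R, a difference of 2.84, and GDF15 had 12.8 FPKM in GR and 29.3 FPKM in R, a difference of 2.81. For these stress genes the R library held the highest level of the 4.

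The other 6 are small or structural RNAs, which poly(A) selection is meant to remove. RN7SK had a difference of 3.01 and SNORD6 of 3.18, which for SNORD6 rests on 30 counts in G and 11 in Control. RNA5-8SN2 differed by 2.54, RNA5-8SN3 by 2.43, the row named 5_8S_rRNA by 2.41 and MIR3648-2 by 2.43. RNA5-8SN2 and RNA5-8SN3 are copies of 1 sequence, so their reads cannot be told apart.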

How the results depend on the processing

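Against 434 genes at least 2-fold higher in G than in Control, a pseudocount of 0.1 gave 1064, one of 0.5 gave 714, a limit of 5 FPKM 211 and leaving out overlapping genes 254. Against 60 lower, the pseudocount of 0.1 gave 147, 5 FPKM 38, TMM scaling 150, median-ratio scaling 142 and no overlapping genes 26. Against 823 higher in GR than in R, a pseudocount of 0.1 gave 1896, 0.5 gave 1344, 5 FPKM 494, TMM scaling 370 and median-ratio scaling 375. Against 145 lower, they were 262 at 0.1, 90 at 5 FPKM, 370 with TMM, 368 with median-ratio scaling and 61 without overlapping genes. Scaling without mitochondrial genes gave 450 higher and 65 lower in G. Of 288 named genes 284 kept their sign with TMM factors, and 116 of 142 past 2-fold stayed so; with the GC trend removed 124 of 137 did. Of 44 list medians, 36 kept their sign with TMM factors and 44 with the GC trend removed. None of the named genes past 2-fold that an alternative kept changed sign under it. No paired analysis was possible because each group has 1 library and its replicate number is only a name.

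Depth was alike in G and Control, and the spread between cultures was not measured. A gene with 0 counts is limited by the floor of 3 counts, and PCR duplicates are not separated from molecules. Culture, extraction and sequencing of each library cannot be told apart from its treatment.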
